A study of Homo sapiens with 8 samples.

Results

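The cytosolic ribosomal protein genes encode the protein subunits of the ribosome that works in the cytoplasm. They were taken as the genes whose symbol is RPL or RPS followed by digits and nothing else, or by A, L or X, together with RPLP0, RPLP1, RPLP2 and RPSA. On these arrays 56 such genes of 19775 genes in all had a probe set annotated with 1 gene symbol, and for each of them the brightest such probe set, by the mean of the 8 arrays, was read. A further 15 ribosomal protein genes, among them RPL5, RPS26 and RPL10, were named only by probe sets with several symbols and were not analysed here. RPLP0, RPSA and RPS27A were named by neither kind of probe set and were not analysed either. The 56 genes had 117 probe sets, and 34 of them had more than 1. After a filter on dim probe sets 54 were tested, 33 of the large and 21 of the small subunit. RPL36A and RPL3L did not pass.

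H9, an established human embryonic stem cell line, was measured undifferentiated at day 0 and after differentiation toward blood in serum-free medium containing BMP-4. The groups were unsorted H9 cells at day 0, and cells sorted by FACS for KDR, a receptor of vascular endothelial growth factor, and for CD31, the endothelial adhesion molecule PECAM1, at day 4, day 6 and day 8. Each group had 2 arrays, called biological replicates in the labels, which do not say whether a culture was shared, so that the p-values measure only the spread between these arrays. The undifferentiated line was kept on mouse feeder cells. Since day 0 was not sorted, day and sorting cannot be told apart in any comparison with day 0. Comparisons with day 0 also share the same 2 day 0 arrays.

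Each ribosome holds nearly all of these proteins, set on a scaffold of ribosomal RNA in a small subunit, which reads the messenger RNA, and a large subunit, which joins amino acids. The messenger RNAs are abundant in dividing cells, and their 5′ ends begin with a C and a run of pyrimidines, the terminal oligopyrimidine or TOP tract, through which mTORC1 signalling controls their translation. Mutation of any of several of these genes causes Diamond-Blackfan anaemia, in which red cell precursors fail, and embryonic stem cells lie at the start of the route that leads to such precursors.

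The sequence around the annotated start of the gene is shown for members that differed between days and for members that did not, because the TOP tract is the feature that the family is known for. RefSeq promoter windows (GRCh38.p14) were found for 48 of the 56 members. The windows below hold 40 bases before the annotated start and 20 from it on, on the transcribed strand, 5′ to 3′. Capitals mark a TOP-like tract, defined as a C followed by at least 5 bases that are each C or T, whose first base lies within 10 bases of the annotated start.
RPS24, chr10:78033823-78033882, plus strand: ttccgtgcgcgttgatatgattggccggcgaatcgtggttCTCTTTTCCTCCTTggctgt
RPS6, chr9:19380217-19380276, minus strand: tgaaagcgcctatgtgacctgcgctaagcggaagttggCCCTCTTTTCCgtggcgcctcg
RPL35A, chr3:197950150-197950209, plus strand: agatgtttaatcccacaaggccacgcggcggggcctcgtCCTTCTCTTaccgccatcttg
RPL11, chr1:23691766-23691825, plus strand: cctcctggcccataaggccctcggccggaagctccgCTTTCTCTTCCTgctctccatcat
RPL41, chr12:56116593-56116652, plus strand: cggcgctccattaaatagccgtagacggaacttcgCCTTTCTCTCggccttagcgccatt
RPL39, chrX:119791611-119791670, minus strand: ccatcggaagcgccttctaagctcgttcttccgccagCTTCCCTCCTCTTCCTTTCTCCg
RPL10L, chr14:46651762-46651821, minus strand: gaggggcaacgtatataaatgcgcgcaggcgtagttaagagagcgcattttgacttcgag
RPS27L, chr15:63157458-63157517, minus strand: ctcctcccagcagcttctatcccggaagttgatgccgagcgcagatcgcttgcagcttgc

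The tract begins at the annotated start itself in RPS24 and within 5 bases upstream of it in RPS6, RPL35A, RPL11, RPL41 and RPL39. RPL11 has another annotated start, further upstream, around which no tract was found. The windows of RPL10L and RPS27L hold none by this definition. Of the 55 windows of the members, 43 held such a tract (78.2%), against 20.8% of all 34961 windows in the table. Of the windows of members called lower at any day, 9 of 10 held it (90%), and of the windows of the tested members not called, 33 of 44 did (75%). The 7 letters CCGGAAG, the form of the ETS factor site searched for on both strands of the 300-base window, were found in 22 of 55 member windows (40%) and in 10.3% of all windows. These matches describe letters near annotated starts, and no binding or translation was measured.

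The arrays gave 1 intensity per probe set, with a median between 88.8 and 93.3 on every array. Values below are log2(intensity + 32), called log2 intensity, and a change is a difference of group means on that scale. Differences were tested with limma in 1 fit over the 8 arrays, and a gene is said to have risen or fallen where its p, adjusted over the 13807 genes tested, was under 0.05. In bulk RNA, fewer cells of a type and less RNA per cell cannot be told apart. The labelled cell types were checked against marker genes. The summed intensity of 6 measured markers of undifferentiated cells was 3642 to 7141 on the sorted arrays, against 41451 and 43037 on the day 0 arrays, and 2 to 4 of the 6 lay above the array median on sorted arrays, against all 6 at day 0. That of 8 endothelial markers was 38160 to 56192 on the sorted arrays, against 1368 and 1399 at day 0, with 8 of 8 above the array median on each sorted array, against 3 at day 0. That of 8 fibroblast and smooth muscle markers was 11321 to 24169 on the sorted arrays, against 35895 and 36260 at day 0. That of 8 yolk sac endoderm markers was 885 to 28110 on the sorted arrays, against 1546 and 1559 at day 0. That of 7 erythroid markers was 535 to 10529 on the sorted arrays, against 365 and 405 at day 0, and that of 8 leukocyte markers 3565 to 6886, against 910 and 928. Over all genes the replicates correlated at r = 0.997 (day 0), 0.952 (day 4), 0.938 (day 6) and 0.980 (day 8), and the first replicates of day 4 and of day 6 lay far from the rest of the sorted arrays. The 3′ signal of ACTB over its 5′ signal is a sign of RNA integrity. This ratio was 9.18 to 31.0 on the sorted arrays, against 8.92 and 10.4 at day 0. That for GAPDH was 2.15 to 3.73, against 1.71 and 1.91. The ACTB maximum, 31.0, came from day 6 replicate 1, whose partner gave 16.0. Elsewhere among sorted arrays ACTB gave 19.0 (day 4 replicate 1), 9.18 (its partner), 9.91 (day 8 replicate 1) and 15.1 (its partner). GAPDH was highest on the 2 day 6 arrays, 3.73 and 3.41, then 2.41 and 3.08 for day 8. Day 4 gave the lowest sorted GAPDH values, 2.22 and 2.15. The part of these differences in the results below was not tested.

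On the brightest probe set of each gene, the ribosomal protein genes as a group stayed close to their day 0 level at day 4. They were slightly lower at day 6 and day 8. The median of the 54 tested members was 14.13 and 14.16 on the day 0 arrays, 14.20 and 13.99 on those of day 4, 13.99 and 13.71 on those of day 6, and 13.96 and 13.71 on those of day 8. Day 4 overlapped with day 0, while all 4 arrays of day 6 and day 8 lay below both day 0 arrays. The median change of the members was -0.04 at day 4, -0.17 at day 6 and -0.26 at day 8, each against day 0, where the median of all genes tested was 0.02, -0.03 and -0.03. The upper end of the arrays moved too: the 99th percentile of all probe sets was 12.93 and 12.86 on the day 0 arrays, 13.00 and 12.85 on those of day 4, 12.90 and 12.74 on those of day 6, and 12.85 and 12.69 on those of day 8. The highest value on an array was 15.04 to 15.14, so the members' median lay near the top of the scale. The part of this in the size of their changes was not tested. After quantile normalization, which gives every array the same distribution, the medians of the members shrank to -0.02 at day 4, -0.06 at day 6 and -0.10 at day 8.

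**Figure D1:**
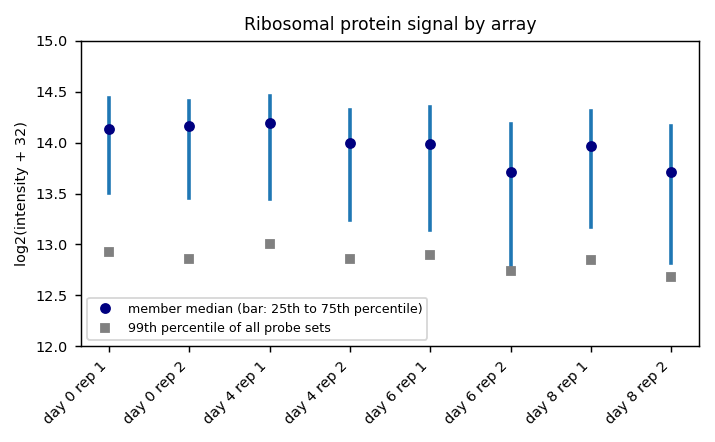
Log2(intensity + 32) per array (vertical axis) for the 8 arrays in order of day. Circles show the median of the 54 tested ribosomal protein genes with a bar from the 25th to the 75th percentile, and squares the 99th percentile of all probe sets. The members' median lies at 14.13 and 14.16 at day 0 and at 13.71 on the second replicates of day 6 and day 8.

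Within each sorted day the replicates differed as well. Replicate 1 was higher than replicate 2 for 48 of 54 members at day 4, 51 at day 6 and 49 at day 8, against 63.2%, 56.5% and 60.3% of all genes tested. At day 0 it was higher for 31 members, against 53.5% of all genes. The median difference of replicate 1 from replicate 2 over the members was 0.02 at day 0, and on the sorted days it was 0.19 (day 4), 0.27 (day 6) and 0.17 (day 8). The marker sums given above also differed between the replicates of a sorted day, and their part in this was not tested.

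Taken gene by gene, a minority of members was called as fallen at day 6 and day 8. No member rose at any day on its chosen probe set. At day 4, 1 of 54 members had fallen against day 0 (1.85%), where 18.2% of all genes tested were called and 9.68% had fallen. At day 6, 9 of 54 had fallen (16.7%), where 23.2% of all genes were called and 13.4% had fallen. At day 8, 8 of 54 had fallen (14.8%), where 24% were called and 13.8% had fallen. The share of members that had fallen was therefore near that of all genes at day 6 and day 8 and under it at day 4, while 0 members had risen in any of the comparisons, where 8.49%, 9.76% and 10.3% of all genes had at day 4, day 6 and day 8. At an unadjusted p under 0.05 there were 2, 18 and 14 members at day 4, day 6 and day 8, where 31.1%, 35.4% and 38% of all genes passed. These counts depended on single arrays. Without day 0 replicate 1 they were 0 at day 4, 0 at day 6 and 1 at day 8, and without day 0 replicate 2 they were 0, 1 and 1. Without day 6 replicate 2 the day 6 count was 5, of which 4 were falls and 1, RPLP2, a rise, and without day 8 replicate 2 the day 8 count was 1. With the first replicates of both day 4 and day 6 left out, which lay far from the rest, they were 3, 25 and 22, of which 2 at day 6 and 1 at day 8 had risen.

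**Figure D2:**
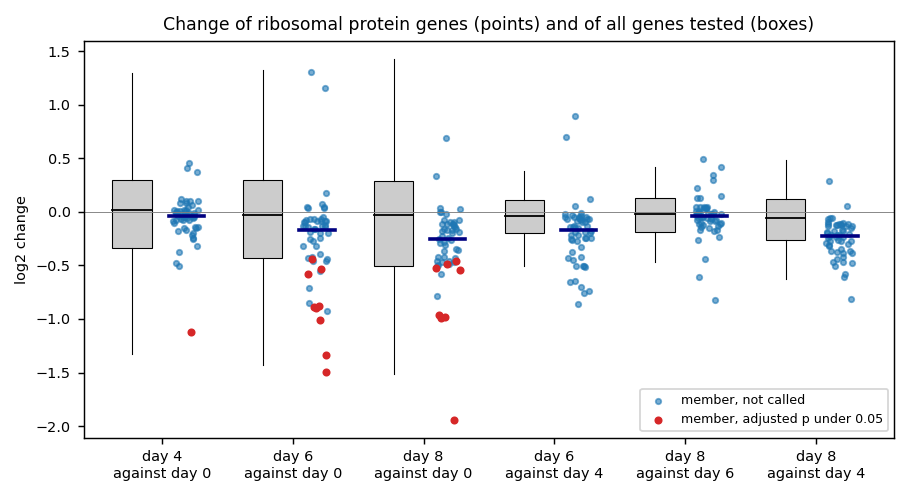
Log2 change (vertical axis) in the 6 comparisons, the later day minus the earlier. Points are the 54 tested ribosomal protein genes, filled red where the adjusted p was under 0.05, with a line at their median. Boxes span the 25th to 75th percentile of all 13807 genes tested, with whiskers to the 5th and 95th. Red points stand only in the comparisons with day 0 (1 for day 4, 9 for day 6 and 8 for day 8), and all lie below 0.

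Fitted direction was more even than the calls. Of the 54 members, 35 were fitted lower at day 4, 46 at day 6 and 49 at day 8 than at day 0. Of all 13807 genes tested, 6639, 7246 and 7306 were. Both arrays of day 8 lay below both arrays of day 0 in 44 members (81.5%) and above them in 2, where 42.2% of all genes lay below and 35.3% above. For day 6 against day 0 the numbers were 31 below (57.4%) and 4 above, where 35.3% and 30.2% of all genes did so, and for day 4 against day 0 they were 13 below (24.1%) and 1 above, where 31.4% and 34.3% did so. All 6 sorted arrays lay below both day 0 arrays in 13 members, which were RPL3, RPL11, RPL12, RPL18, RPL35, RPL35A, RPL39L, RPS6, RPS9, RPS10, RPS14, RPS15 and RPS24, and in 0 members did all 6 lie above. The group mean was highest at day 0 in 35 members and lowest at day 8 in 31, and in 21 members it was lower at each later day than at the day before. The patterns over all 6 sorted arrays and in the order of group means were not counted over all genes. They are therefore not read as particular to these members.

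**Figure D3:**
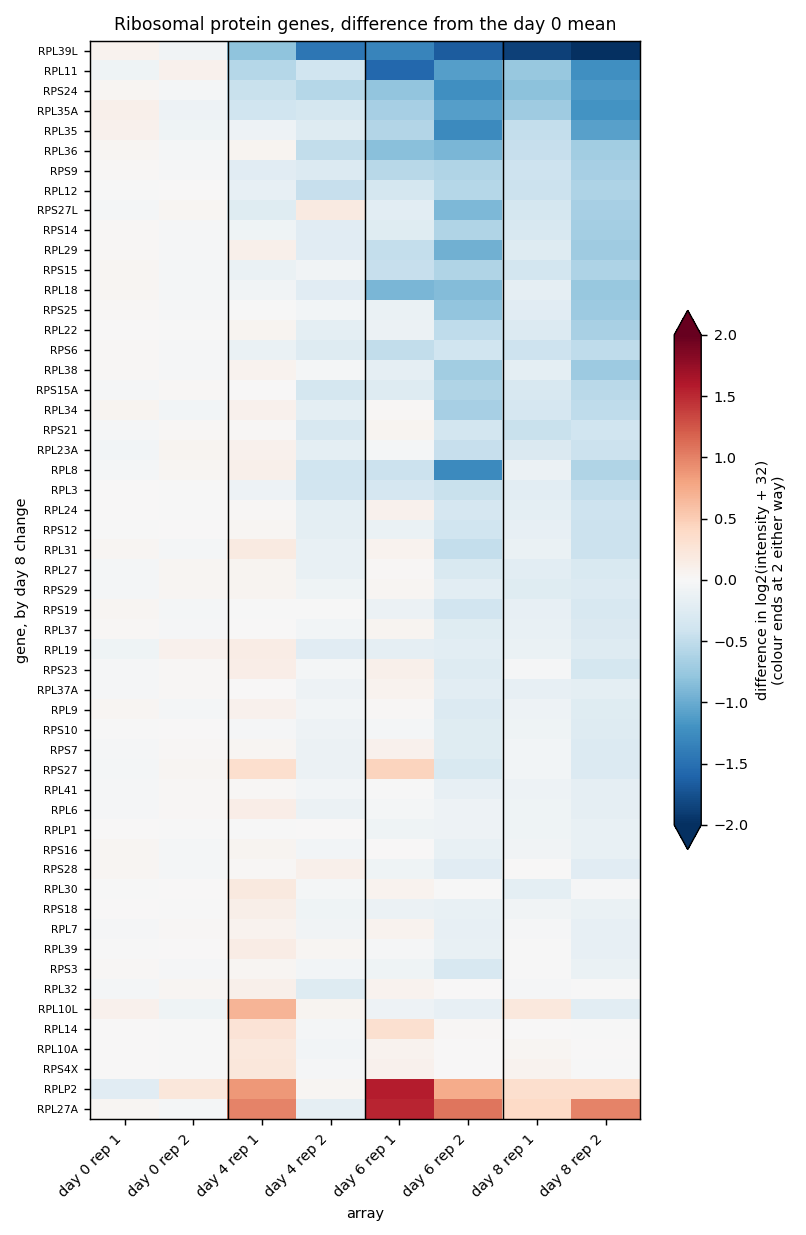
Each row is 1 of the 54 tested ribosomal protein genes, ordered by its change at day 8, and each column 1 of the 8 arrays in order of day. Colour gives the difference in log2(intensity + 32) from the mean of the 2 day 0 arrays, blue for lower and red for higher, and ends at 2 either way. RPL39L heads the rows at -1.94 at day 8, and RPLP2 and RPL27A at the foot are the members with the largest positive differences at day 6.

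RPL39L, a paralogue of the large subunit protein RPL39 known for its expression in testis, was the member that fell at all 3 sorted days. Its log2 intensity was 9.42 and 9.28 on the day 0 arrays, 8.55 and 7.90 on those of day 4, 8.02 and 7.68 on those of day 6, and 7.49 and 7.33 on those of day 8. Every sorted array lay below both day 0 arrays, and both day 8 arrays lay below all others. The change was -1.13 ± 0.24 at day 4 (SE, limma adjusted p = 0.0197), -1.50 ± 0.24 at day 6 (adjusted p = 0.00555) and -1.94 ± 0.24 at day 8 (adjusted p = 0.0019), a level 3.84-fold lower at day 8 than at day 0. It was the 1 member still called at day 8 without day 0 replicate 1, without day 0 replicate 2 or without day 8 replicate 2, with adjusted p of 0.0224, 0.0181 and 0.0218. The day 4 call was lost when day 0 replicate 1 or day 0 replicate 2 was left out (adjusted p = 0.135 and 0.0987) and when day 4 replicate 2 was (0.055). The day 6 call was lost when day 0 replicate 1 was left out (0.0526). RPL39 itself read 14.50 and 14.51 on the day 0 arrays, 14.65 and 14.55 on those of day 4, 14.49 and 14.36 on those of day 6, and 14.50 and 14.35 on those of day 8, with the days overlapping in part and no change called.

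The other paralogues gave no call. RPL10L, an intronless copy of RPL10 needed in mouse sperm formation, read 8.23 and 8.07 on the day 0 arrays, 8.84 and 8.21 on those of day 4, 8.05 and 7.99 on those of day 6, and 8.37 and 7.93 on those of day 8. RPS27L, a paralogue of RPS27 that p53 is known to induce, read 12.74 and 12.81 on the day 0 arrays, 12.53 and 12.95 on those of day 4, 12.56 and 11.88 on those of day 6, and 12.43 and 12.12 on those of day 8. Its day 6 and day 8 arrays lay below both day 0 arrays, with changes of -0.55 ± 0.26 and -0.50 ± 0.26 (SE, adjusted p = 0.19 and 0.212). RPL3L, a paralogue of RPL3 found in heart and skeletal muscle, stayed between 6.59 and 6.68 on all 8 arrays and was not tested.

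RPL11 binds RPL5 and the smallest ribosomal RNA of the large subunit in a particle that, when ribosome assembly fails, inhibits MDM2 and so raises p53. Its log2 intensity was 13.15 and 13.32 on the day 0 arrays, 12.67 and 12.84 on those of day 4, 11.66 and 12.13 on those of day 6, and 12.48 and 12.01 on those of day 8. Every sorted array was below both day 0 arrays, and day 6 was below day 4. The change was -0.48 ± 0.23 at day 4 (SE, limma adjusted p = 0.21), -1.34 ± 0.23 at day 6 (adjusted p = 0.00725) and -0.99 ± 0.23 at day 8 (adjusted p = 0.022). After quantile normalization the day 8 call was lost.

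The Diamond-Blackfan anaemia genes gave 4 of the 9 falls of day 6 and 3 of the 8 of day 8. Of 13 such members tested, RPL11, RPL18, RPL35A and RPS24 had fallen at day 6, and RPL11, RPL35A and RPS24 at day 8, which is 30.8% and 23.1% of the 13. The list used may not be complete, and RPS15A, not called at either day, was counted among the other members. Of the 41 other members 5 had fallen at each of these days (12.2%), where 13.4% and 13.8% of all genes had, and the difference was not tested. The median change over the 13 was -0.20 and -0.26. Over the 41 others it was -0.16 and -0.22. RPS24, of the small subunit, read 13.83 and 13.76 on the day 0 arrays, 13.36 and 13.23 on those of day 4, 13.00 and 12.57 on those of day 6, and 12.98 and 12.66 on those of day 8. Each sorted day lay below day 0, and day 6 and day 8 lay below day 4. Its change was -1.01 ± 0.19 at day 6 (SE, adjusted p = 0.01) and -0.98 ± 0.19 at day 8 (adjusted p = 0.0112), and both of its probe sets were called on their own at both days. RPL35A, of the large subunit, read 13.50 and 13.30 on the day 0 arrays, 13.01 and 13.04 on those of day 4, 12.74 and 12.30 on those of day 6, and 12.69 and 12.20 on those of day 8. It followed the same order, day 6 and day 8 overlapping each other and lying below day 4. The change was -0.89 ± 0.22 at day 6 and -0.96 ± 0.22 at day 8 (SE, adjusted p = 0.029 and 0.021). All 4 of its tested probe sets were fitted lower at both days, but 1 was called.

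RPL18, also on the Diamond-Blackfan list, read 13.36 and 13.28 on the day 0 arrays, 13.24 and 13.09 on those of day 4, 12.41 and 12.45 on those of day 6, and 13.14 and 12.56 on those of day 8. Both day 6 arrays stood below all others, and the day 8 arrays lay far apart. Its change was -0.89 ± 0.20 at day 6 (SE, adjusted p = 0.0207) and -0.47 ± 0.20 at day 8 (adjusted p = 0.136). Its 2 other tested probe sets did not share the fall, with changes of 0.03 and 0.05 at day 6. RPS19, the gene most often mutated in that anaemia, read 14.45 and 14.38 on the day 0 arrays, 14.41 and 14.40 on those of day 4, 14.29 and 14.03 on those of day 6, and 14.26 and 14.09 on those of day 8. Its change was -0.26 ± 0.12 at day 6 and -0.24 ± 0.12 at day 8 (SE, adjusted p = 0.195 and 0.199).

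The remaining falls lay outside the rule that named genes for one or both days and are listed because the calls were few, a choice made after their values were seen. RPS6, the small subunit protein phosphorylated by S6 kinase downstream of mTORC1, read 14.35 and 14.32 on the day 0 arrays, 14.21 and 14.08 on those of day 4, 13.85 and 13.94 on those of day 6, and 13.92 and 13.83 on those of day 8. Day 6 and day 8 lay below day 4, and day 4 below day 0. The change of RPS6 was -0.44 ± 0.10 at day 6 and -0.46 ± 0.10 at day 8 (SE, adjusted p = 0.0255 and 0.0204), with 3 of 3 tested probe sets called at both days, and both calls were lost after quantile normalization. RPS9, a small subunit protein that binds ribosomal RNA early in assembly, averaged 13.44 ± 0.03 at day 0, 12.86 ± 0.03 at day 6 and 12.90 ± 0.18 at day 8 (SD, n = 2 each). Its change was -0.58 ± 0.13 and -0.54 ± 0.13 (SE, adjusted p = 0.0232 and 0.0281), and 2 of 2 tested probe sets were called. RPS15, of the head of the small subunit, averaged 14.41 ± 0.06 at day 0, 13.87 ± 0.11 at day 6 and 13.92 ± 0.18 at day 8 (SD, n = 2 each), with adjusted p of 0.0229 and 0.0306. RPL36, of the large subunit, averaged 11.39 ± 0.06 at day 6, against 12.26 ± 0.06 at day 0 (SD, n = 2 each), a change of -0.87 ± 0.21 (SE, adjusted p = 0.0272). RPL12, which sits at the base of the large subunit stalk, averaged 13.63 ± 0.13 at day 8, against 14.16 ± 0.01 at day 0 (SD, n = 2 each), a change of -0.53 ± 0.15 (SE, adjusted p = 0.0414). In all, 10 members were called in at least 1 comparison, and 7 of them at both day 6 and day 8. When the probe sets of each gene were averaged, 4 of the 9 calls of day 6 were kept (RPL11, RPL39L, RPS9 and RPS24) and 4 of the 8 of day 8 (RPL11, RPL12, RPL39L and RPS24). Without an eBayes trend, the calls of RPS6 at day 6 and of RPS15 and RPL12 at day 8 were lost.

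**Figure D4:**
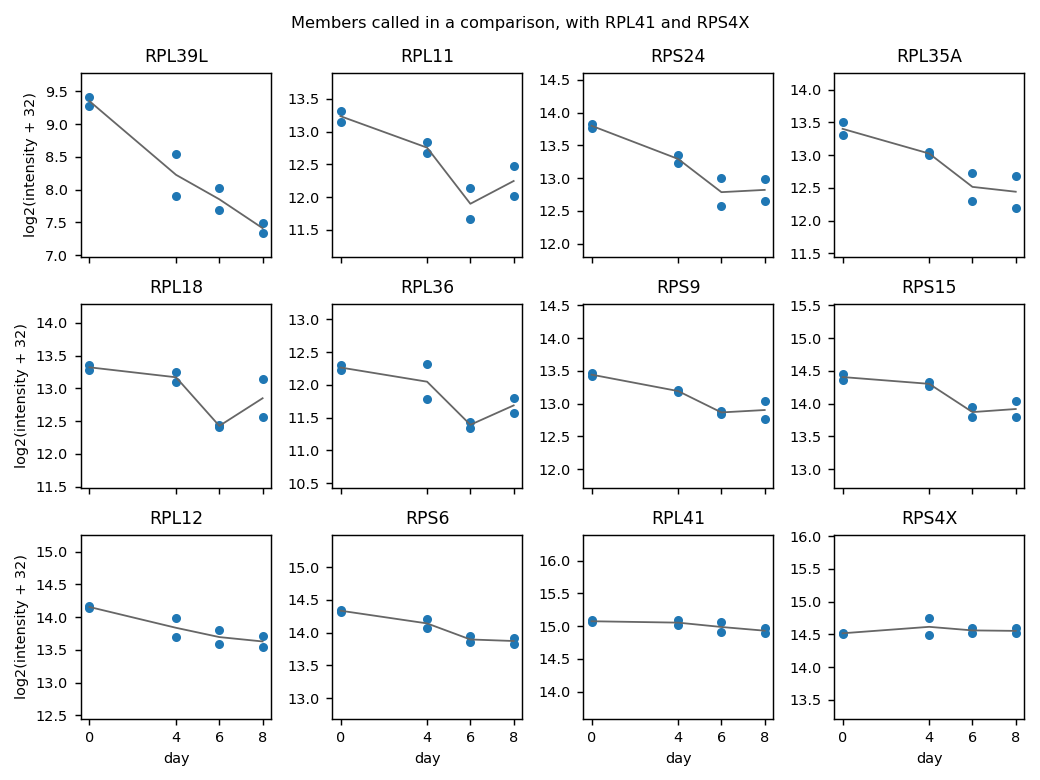
Log2(intensity + 32) against day for the 10 members called in at least 1 comparison and for RPL41 and RPS4X, which were not called. Points are single arrays, 2 a day, and lines join the group means. Every panel spans the same height on the log2 scale, and RPL39L is the member whose mean is lowest at day 8 by the widest margin from day 0, at 7.41 against 9.35.

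The stalk proteins RPLP1 and RPLP2, acidic proteins that recruit the elongation factors, gave no call. RPLP1 read 14.22 and 14.20 on the day 0 arrays, 14.20 and 14.22 on those of day 4, 14.13 and 14.10 on those of day 6, and 14.13 and 14.06 on those of day 8. It had the narrowest range of the tested members, 0.16, with day 6 and day 8 just below day 0. RPLP2 read 7.69 and 8.13 on the day 0 arrays, 8.78 and 7.96 on those of day 4, 9.48 and 8.65 on those of day 6, and 8.24 and 8.25 on those of day 8 from its 1 tested probe set. Both day 6 arrays were above all day 0 and day 8 arrays, a change of 1.16 ± 0.36 that was not called (SE, adjusted p = 0.0626). RPL27A, of the large subunit, read 9.23 and 9.14 on the day 0 arrays, 10.17 and 9.01 on those of day 4, 10.71 and 10.25 on those of day 6, and 9.58 and 10.17 on those of day 8. Day 6 and day 8 lay above day 0, and its day 6 change of 1.30 ± 0.41 was not called (SE, adjusted p = 0.0614), but was after quantile normalization. The only tested probe sets of RPLP2 and RPL27A were dim beside the members' array medians of 13.71 to 14.20. The part of low signal in their changes was not tested.

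The other members named by the rule gave no call. RPL41, which encodes one of the shortest proteins known, ranged over 0.20 across the arrays, between 14.89 and 15.09. RPS16, of the small subunit, ranged over 0.21 on its chosen probe set, but another of its probe sets was called lower at day 6 and day 8 on its own, with changes of -0.70 and -0.56. RPS4X, an X-linked small subunit gene, read 14.52 and 14.51 on the day 0 arrays, 14.74 and 14.49 on those of day 4, 14.60 and 14.52 on those of day 6, and 14.59 and 14.52 on those of day 8, a change of 0.04 ± 0.11 at day 8 (SE, adjusted p = 0.852). RPL22, whose loss in mouse blocks the growth of αβ T cells, read 14.12 and 14.10 on the day 0 arrays, 14.16 and 13.91 on those of day 4, 13.98 and 13.60 on those of day 6, and 13.84 and 13.45 on those of day 8. Its day 6 and day 8 arrays lay below day 0 without a call (adjusted p = 0.285 and 0.12), while another of its probe sets was called at day 6 and day 8 with changes of -1.27 and -0.94, and RPL22 was called at both days when its probe sets were averaged. RPL8, of the large subunit, had a range of 1.38, which came from 12.85 on day 6 replicate 2 alone, against 13.51 or more on the other 7 arrays. In all, 9 members had a range under 0.3 over the 8 arrays, and 10 a range of at least 1.

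Large and small subunit genes had similar medians. Over the 33 large subunit members the median change was -0.04 at day 4, -0.14 at day 6 and -0.26 at day 8, with 1, 5 and 4 falls (3.03%, 15.2% and 12.1%). Over the 21 small subunit members it was -0.03, -0.20 and -0.26, with 0, 4 and 4 falls (0%, 19% and 19%). Of all genes tested, 9.68%, 13.4% and 13.8% had fallen. The difference between the subunits was not tested. Over all 106 tested probe sets of the members, each taken on its own, 75, 87 and 89 were fitted lower than day 0 at day 4, day 6 and day 8. Of them 4, 21 and 20 were called lower (3.77%, 19.8% and 18.9%), where 8.79%, 11.7% and 12.1% of all 24898 probe sets tested were, and 0, 2 and 1 were called higher, where 7.05%, 8.41% and 8.86% of all were. Some differed from the chosen probe set of their gene. Another probe set of RPL14 was called lower at day 6 and day 8 (-0.83 and -0.62, chosen 0.17 and 0.0005). So was another of RPL24 (-0.84 and -0.87, chosen -0.13 and -0.31) and of RPL37 (-1.52 and -1.26, chosen -0.09 and -0.22). Those called higher were 2 of RPL38 at day 6 (1.43 and 1.25, chosen -0.44) and 1 of RPL37A at day 8 (0.89, chosen -0.18). Of the chosen probe sets of the tested members, 17 belong to the class that can bind transcripts of several genes and 26 to the class shared by transcripts of 1 family, and ribosomal protein genes have many processed pseudogenes, so the level of a single member may include near-identical copies.

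Among the sorted days no member was called, and neither was any gene among the 13807 tested (0%), by limma at the adjusted threshold. For day 6 against day 4, 50 of 54 members were fitted lower, with a median of -0.17 where that of all genes was -0.04, and 8 had an unadjusted p under 0.05, where 5.18% of all genes did. For day 8 against day 4, 52 were fitted lower, with a median of -0.22 where that of all genes was -0.06, and 5 had an unadjusted p under 0.05, where 6.37% did. For day 8 against day 6, 37 were fitted lower, with a median of -0.04 where that of all genes was -0.02, and 0 had an unadjusted p under 0.05, where 2.5% did. Both day 6 arrays lay below both day 4 arrays in 21 members and above them in 1, where 16% of all genes lay below and 8.38% above, both day 8 arrays below both day 4 arrays in 29 and above them in 0, where 22.9% lay below and 14.8% above, and both day 8 arrays below both day 6 arrays in 8 and above them in 2, where 12.9% lay below and 12.8% above. The members with the smallest p for day 6 against day 4 were RPL11, with -0.86 ± 0.23, and RPL18, with -0.74 ± 0.20 (SE, limma adjusted p = 0.855 for both). For day 8 against day 4 they were RPL39L, with -0.81 ± 0.24, and RPS15, with -0.38 ± 0.12 (SE, adjusted p = 0.732 for both). For day 8 against day 6 they were RPLP2, with -0.82 ± 0.36, and RPL18, with 0.42 ± 0.20 (SE, adjusted p = 0.954 for both).

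Genes of the mitochondrial ribosome and of ribosome assembly had lower medians than the cytosolic subunits themselves, a difference that was not tested. The cytosolic members had array medians of 13.71 to 14.20, near the top of the scale. The part of signal level in this difference was not tested. Of 75 mitochondrial ribosomal protein genes tested, whose products form the separate ribosome of mitochondria, 6 had fallen at day 4 (8%), 22 at day 6 (29.3%) and 27 at day 8 (36%), where 9.68%, 13.4% and 13.8% of all genes had, and 0 had risen. Their median change was -0.25, -0.56 and -0.67. MRPS12 averaged 7.29 ± 0.23 at day 6, against 9.26 ± 0.03 at day 0 (SD, n = 2 each), a change of -1.97 ± 0.22 (SE, adjusted p = 0.00117). MRPL27 averaged 9.67 ± 0.10 at day 8, against 10.87 ± 0.10 at day 0 (SD, n = 2 each), and MRPL11 averaged 9.27 ± 0.06, against 10.45 ± 0.01, with adjusted p of 0.00292 and 0.00395. MRPL21 had fallen at day 4 and day 8, by 0.64 and 0.97 on the log2 scale, and MRPS2 at day 6, by 1.08.

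Ribosome biogenesis genes, which make and process ribosomal RNA and join it to the proteins, fell in 12 of 67 at day 4 (17.9%), 22 at day 6 (32.8%) and 19 at day 8 (28.4%), with 0 rises and medians of -0.54, -0.57 and -0.68. Of all genes tested, 9.68%, 13.4% and 13.8% had fallen. NOP16, a nucleolar assembly factor of the large subunit, averaged 11.38 ± 0.03 on the day 0 arrays, 9.94 ± 0.01 on those of day 4, 9.19 ± 0.05 on those of day 6 and 9.64 ± 0.06 on those of day 8 (SD, n = 2 each). Its day 6 change was -2.19 ± 0.16 (SE, adjusted p = 0.000179). NCL, or nucleolin, a main nucleolar protein, averaged 12.26 ± 0.19 at day 6, against 13.36 ± 0.06 at day 0, a change of -1.10 ± 0.17 (SE, adjusted p = 0.00445). RRS1, an assembly factor that brings in the particle of RPL5 and RPL11, averaged 8.85 ± 0.06 at day 6, against 10.51 ± 0.17 at day 0 (SD, n = 2 each, adjusted p = 0.00418). URB2, which acts in large subunit assembly in yeast, had fallen at day 4 and day 8, by 1.33 and 1.24, EMG1, a methyltransferase of the small subunit RNA, by 1.20 at day 6 and 1.14 at day 8, POLR1D, a subunit shared by RNA polymerases I and III, by 1.01 at day 8, and RRP12 by 0.80 at day 4, all on the log2 scale. Of 4 host genes of small nucleolar RNAs tested, SNHG17 had fallen at day 4 and day 6 and EPB41L4A-AS1 at day 6 and day 8, with EPB41L4A-AS1 lower by 1.06 on the log2 scale at day 6. The share of the 4 that had fallen was 25%, 50% and 25% at day 4, day 6 and day 8.

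**Figure D5:**
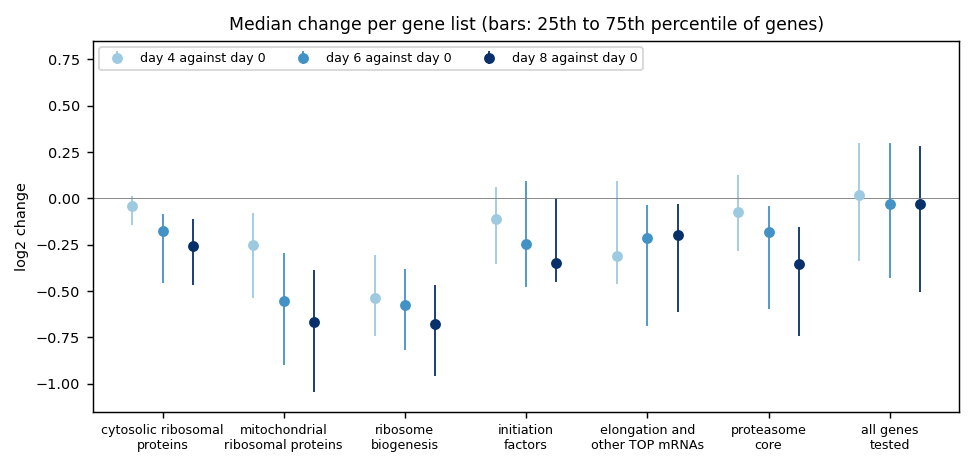
Median log2 change of each gene list (circles) with a bar from the 25th to the 75th percentile of its genes, at day 4, day 6 and day 8 against day 0, light to dark. The cytosolic ribosomal protein genes have medians of -0.04, -0.17 and -0.26, the mitochondrial ones -0.25, -0.56 and -0.67, and ribosome biogenesis genes -0.54, -0.57 and -0.68, and the difference between the lists was not tested.

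Translation factors were called in both directions. Of 35 initiation factors, 0 had fallen at day 4, 3 at day 6 and 3 at day 8 (0%, 8.57% and 8.57%). Of all genes tested, 9.68%, 13.4% and 13.8% had. The 3 were EIF3G, EIF4H and EIF4A3 at both days. At each day 1 initiation factor had risen (2.86%), where 8.49%, 9.76% and 10.3% of all genes had. EIF3G, a subunit of a factor that binds the small ribosomal subunit before initiation, averaged 11.28 ± 0.11 at day 6, against 12.27 ± 0.03 at day 0 (SD, n = 2 each, adjusted p = 0.00457). EIF1, which acts in start codon choice, had risen at day 4 and day 6 (0.52 ± 0.12 and 0.50 ± 0.12, SE, adjusted p = 0.028 and 0.0289), and EIF4G1, the scaffold of the cap-binding complex, at day 8 (0.96 ± 0.25, adjusted p = 0.032). Of 11 elongation factor and other TOP genes, 0, 2 and 1 had fallen at day 4, day 6 and day 8 (0%, 18.2% and 9.09%). At day 8, 1 had risen (9.09%). NACA, which binds nascent chains, had fallen at day 6 and day 8, by 0.74 and 0.70 on the log2 scale. EEF2, the translocation factor, averaged 12.45 ± 0.68 at day 6, against 13.70 ± 0.00 at day 0 (SD, n = 2 each, adjusted p = 0.0218), and VIM had risen at day 8 by 0.46 ± 0.13 (SE, adjusted p = 0.0423). Of 6 ribosomal subunits whose symbol lies outside the rule, FAU, which encodes the small subunit protein eS30 fused to a ubiquitin-like protein, had fallen at day 6 and day 8, by 0.75 and 0.67. FAU was the 1 gene of these 6 called at those days (16.7%).

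Genes of the MYC network and of p53 and ribosomal stress were called in both directions. A list drawn up for the mTORC1 pathway held falls, and its only rises were of p90 S6 kinases, described below. At day 4, day 6 and day 8, 9.68%, 13.4% and 13.8% of all genes had fallen and 8.49%, 9.76% and 10.3% had risen. Of 11 genes of the MYC network, 1, 1 and 0 had fallen (9.09%, 9.09% and 0%) and 2, 2 and 1 had risen (18.2%, 18.2% and 9.09%). MYCN averaged 12.01 ± 0.04 at day 0, 11.11 ± 0.10 at day 4 and 11.02 ± 0.50 at day 6 (SD, n = 2 each), with falls at both days (adjusted p = 0.0459 and 0.0287). MAX, the partner of MYC proteins, had risen at all 3 days, by 1.13, 1.25 and 1.21 on the log2 scale, and MXI1, which competes for MAX, at day 4 and day 6, by 1.38 and 1.87. Of 27 genes on the mTORC1 list, 0, 1 and 2 had fallen (0%, 3.7% and 7.41%) and 1, 1 and 2 had risen (3.7%, 3.7% and 7.41%). LAMTOR4 had fallen at day 6 and day 8, by 1.35 and 1.02, and LARP4 at day 8, by 0.83. The list also held p90 S6 kinases, which are not mTORC1 components. Of these RPS6KA3 had risen at all 3 days, by 0.68, 0.60 and 0.55, and RPS6KA2 at day 8, by 2.68. Of 13 p53 and ribosomal stress genes, 2 had risen at each day (15.4%) and 1 had fallen at day 6 (7.69%). PLK2 had risen at all 3 days, by 2.91, 2.37 and 2.81, and TP53INP1 too, by 1.32, 1.43 and 1.17, while CDKN1A, the p53-induced inhibitor of cyclin-dependent kinases, had fallen at day 6, by 1.50. In the proteasome core, taken as another large complex made in every cell, 4 of 13 subunits tested had fallen at day 6 and 4 at day 8 (30.8% each), where 13.4% and 13.8% of all genes had. These were PSMA3, PSMB2, PSMB3 and PSMB5 on both days. The median of the 13 was -0.07 at day 4, -0.18 at day 6 and -0.36 at day 8.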

How the data were processed

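Gene expression of H9 cells was measured on 8 Affymetrix arrays, 2 for each of 4 groups, from Trizol RNA labelled as biotinylated cRNA, per the labels' protocols. Title, description and stage put 3 samples at day 6 or day 8 whose source name says day 4, and the 3 fields that agree were followed. The authors deposited 1 linear intensity per probe set and array, made with MAS5 per the submitters' processing notes, in a version and scaling not given in the sources used here. No scaling was added, and values were used as log2(intensity + 32), which understates changes of dim genes. Of 54675 probe sets 41091 had 1 gene symbol, 1801 several and 11721 none, and 62 were controls. A gene was tested if 2 or more of the 8 arrays had it above their median, which held for 13807 of 19775, in limma 3.58.1 (R 4.3.3), with a term per group, eBayes with trend, 4 residual and 2.82 prior degrees of freedom, two-sided, with p-values adjusted by Benjamini-Hochberg across all tested genes and a threshold of 0.05. The number of arrays limits the precision. Figures were drawn with matplotlib 3.10.9 in Python 3.11.15. The fit was tested on simulated data.

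The members, gene lists and roles were chosen with earlier results of these data known, so counts over them are descriptions. Named were the called members with the 5 largest rises and falls per comparison, the 2 with the smallest p where none was called, a fixed list of paralogues, stalk and regulatory proteins, the 5 with the widest and the 3 with the narrowest range, and up to 4 called genes per list and comparison with day 0. Alternatives were offsets of 1 and 128, no filter or one at the 75th percentile, median centring, probe sets not ending in _x_at, averaging the probe sets of a gene, quantile normalization, eBayes without trend, only the arrays compared, a replicate block, each array left out, and both arrays that stood apart left out. Each probe set on its own was added after the data were seen. Deviations of same-numbered replicates from their group means correlated over all genes at 0.594, 0.409 and 0.2 between the sorted days, which may be paired by number, but at -0.0356 to 0.0178 between day 0 and each sorted day, so comparisons with day 0 were made without the block.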

Additional observations from a re-analysis of the deposited data

How the results depend on the processing

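The count of members called was within 1.5 times that reported with both offsets, both filters, probe sets not ending in _x_at, eBayes without trend, median centring and, at day 6 and day 8, the mean of all probe sets. With probe sets not ending in _x_at, RPL38 was called at day 6 on a probe set that rose by 1.43 on the log2 scale. With quantile normalization the count at day 4 was 2 and the median change at day 8 was -0.10. With the mean of all probe sets the day 4 count was 3. With only the arrays compared the counts were 2 at day 4 and 21 at day 8, of which 1 had risen. With the replicate block they were 2, 17 and 14 at day 4, day 6 and day 8, of which 2 at day 6 had risen, and 0 in each comparison among sorted days. Without replicate 1 of day 4 and of day 6 they were 3, 25 and 22, and the day 6 median was -0.33. The cause was not tested. With single arrays left out, the counts against day 0 ranged from 0 to 1 at day 4, 0 to 12 at day 6 and 1 to 10 at day 8 (without either day 4 array, 2 of the 12, RPL27A and RPLP2, had risen), and were 0 in each comparison among sorted days. The median change then ranged from -0.12 to 0.05 at day 4, -0.33 to -0.082 at day 6 and -0.34 to -0.16 at day 8 against day 0, from -0.29 to -0.05 for day 6 against day 4, -0.17 to 0.07 for day 8 against day 6 and -0.33 to -0.11 for day 8 against day 4. Of the 10 members called in any comparison, RPL18 at day 6 was the one with probe sets that went the other way, at 0.030 and 0.050. A lone array left in a group was assumed to vary like the other groups, and 2 arrays a group limit what can be called.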
